A study of Drosophila melanogaster with 40 samples.

Results

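The state of whole flies of Drosophila melanogaster at 4 h after a heat shock was described from 5 heat-shocked libraries, set against 3 control libraries that were collected at the same hour without heat shock. These 8 libraries were chosen from the 40 libraries of the study by genotype, age, hour and treatment as labelled. They belonged to 3 strata, meaning combinations of genotype and age. Wild-type young flies gave a climber, a non-climber and a control library, wild-type old flies gave the same 3 kinds, and insulin-ablated old flies gave a climber and a control library. Climbers and non-climbers were told apart after the heat shock by a negative geotaxis assay, which scores whether startled flies climb, and the behaviour of control flies was not assessed. In insulin-ablated flies the insulin-producing cells, brain neurons that secrete insulin-like peptides, had been removed. Insulin-ablated young flies were left out of the comparison, a choice made with the levels of their libraries known. In CPM without TMM scaling, Hsp68 stood at 469 in the library labelled insulin-ablated young control and at 1135 in the climber library, against 7.92 to 50.7 in the 3 controls used here. The number of heat shock genes that passed changed with that choice, as given with their values. So did the whole set, since 299 of the 745 genes that passed remained with that pair added. Lst, GstO3, Mmp1, exu, vas and snRNA:U12 were among the named genes that no longer passed. The driver of the ablation, the ages in days, the sex, the temperature and length of the heat shock and the number of flies per library were not given in the sources used here.

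In the heat shock response, unfolded proteins release heat shock factor, a transcription factor that then switches on genes for chaperones, the proteins that hold or refold damaged proteins. Small heat shock proteins keep unfolded proteins from clumping, Hsp70 and its DnaJ partners refold them, and Hsp90, called Hsp83 in flies, matures signalling proteins. In flies the response is fast, and its messenger RNAs decline again during recovery.

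Each of the 8 conditions had 1 library, so the spread against which heat was tested is the scatter left around stratum and heat, with 4 residual degrees of freedom. This scatter also holds climbing behaviour and any difference of the heat effect between strata. Library totals ran from 14437756 to 22557148 counts, and 10630 of the 17609 genes in the table had enough counts to be tested. The summed counts of Ilp2, Ilp3 and Ilp5, the peptides of the ablated cells, were 31 to 67 in the 6 wild-type libraries, 6 in the ablated control and 3 in the ablated climber library, which checks the genotype labels. In the wild-type young stratum the control came from another batch (batch 2) than the heat-shocked libraries (batch 1), so heat and batch cannot be told apart there. All wild-type old libraries were of batch 3 and both ablated old libraries of batch 5. Heat and control thus shared a batch within each old stratum, but genotype and batch cannot be told apart. In whole-fly RNA, fewer cells of a type and less RNA per cell cannot be told apart.

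Heat shock left 745 genes changed at 4 h, that is 7.01% of the genes tested (edgeR quasi-likelihood test, Benjamini-Hochberg adjusted p under 0.05). Of these, 469 (4.41%) were higher and 276 (2.6%) were lower. These shares are the background for each count of list members below. Most changes were moderate, with a median log2 fold change of 0.63 among the higher and -0.48 among the lower genes, against 0.03 over all genes tested. The higher genes reached further, since 118 of them rose at least 2-fold (1 on the log2 scale) and 27 of the lower genes fell as far. In all, 293 genes (2.76%) had every heat-shocked library above every control and 352 (3.31%) had every one below, which is the background for each statement below that the groups did not overlap. All 5 heat-shocked libraries lay on the called side of their own control for 738 of the 745 genes. Within the strata, the median of the 469 higher genes was 0.72 in wild-type young, 0.58 in wild-type old and 0.51 in ablated old flies, and the median of the 276 lower genes was -0.53, -0.46 and -0.49. These medians, and the 738 genes on the called side, describe genes chosen by the same libraries. When the test was run in the old strata only, where heat and control shared a batch, 243 genes passed, 207 of the 745 genes remained and all 742 that could be tested kept their sign. Leaving out the wild-type young control left 219 genes past the threshold, and leaving out the wild-type old control left 330. Without the wild-type young control the heat term again comes from the old strata. Several of the named genes described below did not pass in the old strata only. The higher ones were Xbp1, daw, Cyp12d1-p, Cyp12a5, CtsL1, Atg8a, RpS7, RpL5, Gclc, puc, imd, Sil1, Cdc37, Hsp110, Hsp67Ba, Hsp70Bc, vri, peb and GstD2. The lower ones were PGRP-SC2, Roe1, Tl, regucalcin, LysE, LysX, PPO2, Jon65Aiv, yip7 and Vm26Ab. Further such genes are given with their values.

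**Figure D1:**
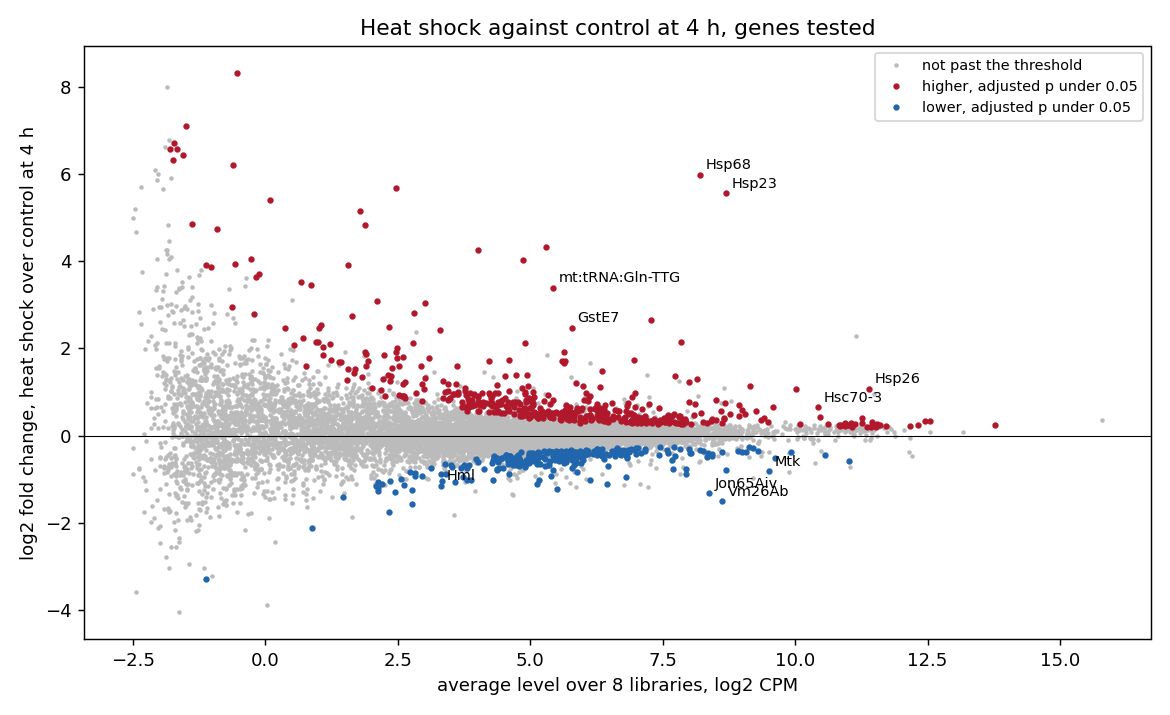
Log2 fold change of heat shock over control at 4 h (vertical axis) against the average level over 8 libraries in log2 CPM (horizontal axis), 1 point for each of the 10630 genes tested. Red points are the 469 higher genes and blue points the 276 lower genes, and Hsp68 and Hsp23 stand highest among genes of high level.

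The inducible heat shock genes were the group with the widest change, and all 14 members that could be tested were higher, beside 4.41% of all genes tested. Their median log2 fold change was 3.97, with a range of 0.44 to 5.98. Levels below are in CPM, counts scaled to library size by TMM, and are given for the wild-type young control, climber and non-climber, then for the wild-type old control, climber and non-climber, then for the ablated old control and climber.

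Among the refolding chaperones, Hsp68, an inducible member of the Hsp70 family (chromosome 3R, 24055080 to 24057310), stood at 49.7, 1982 and 1917 CPM in wild-type young, 22.7, 1198 and 1693 in wild-type old, and 7.02 and 964 in ablated old flies. Every heat-shocked library lay above every control, and the ablated pair had both the lowest control and the lowest heat-shocked level. The log2 fold change was 5.98 ± 0.48 (SE, adjusted p = 0.00743), or 63.3-fold. Here and below, SE is the size of the log2 fold change divided by the square root of the quasi-likelihood F statistic. Hsp68 lost its call without the wild-type old control (5.97, adjusted p = 0.0661), in the old strata only (6.42, adjusted p = 0.0963) and in climbers and controls only. The Hsp70 genes proper are near-identical copies that share reads, so their single values are uncertain, and the summed level of the 5 tested copies is given instead. It was 30.7, 358 and 416 CPM in wild-type young, 16.7, 305 and 423 in wild-type old, and 2.06 and 119 in ablated old flies. The heat-shocked libraries were 11.7-fold and 13.6-fold above their control in young, 18.2-fold and 25.3-fold in old and 57.5-fold in ablated old flies, and they did not overlap with the controls. Each copy passed on its own, from Hsp70Aa (3.91 ± 0.47, adjusted p = 0.000234) to Hsp70Ba (5.40 ± 0.75, adjusted p = 0.000449). The copies did not move alike in the ablated pair. Hsp70Ab went from 0.527 to 5.02 CPM and Hsp70Bb from 0.132 to 0.332 CPM there, while Hsp70Bc went from 1.32 to 104 CPM. The call of Hsp70Bc (4.32 ± 0.67, adjusted p = 0.0408) was lost when any of the 8 libraries was left out, with log2 fold changes of 3.79 to 5.24.

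The small heat shock genes rose as well. Hsp23 (chromosome 3L, 9381882 to 9382765) stood at 67.0, 1649 and 1567 CPM in wild-type young, 32.6, 1907 and 2194 in wild-type old, and 20.3 and 1807 in ablated old flies. The 5 heat-shocked libraries lay close together and far above the 3 controls, with a log2 fold change of 5.56 ± 0.52 (adjusted p = 0.0112) that did not pass without the wild-type old control (5.32, adjusted p = 0.076). Hsp26, which was already abundant in the controls at 2237, 1591 and 1248 CPM, reached 4184 and 4326 in young, 3281 and 4015 in old and 2703 in ablated old flies, a log2 fold change of 1.07 ± 0.08 (adjusted p = 4.22e-07). Hsp67Bc, which encodes a small heat shock protein, rose by 4.25 ± 0.31 on the log2 scale (adjusted p = 0.000485), from 1.80 to 3.83 CPM in the controls to 23.4 to 77.9 in the heat-shocked libraries. Hsp67Ba rose by 2.11 ± 0.44 (adjusted p = 0.00778) at levels of at most 5.98 CPM. Further genes of small heat shock or alpha-crystallin type, chosen after their values were seen, were higher too, with l(2)efl at 0.81 ± 0.12 (adjusted p = 0.00063), CG4461 at 0.65 ± 0.12, CG14207 at 0.47 ± 0.10 and CG7409 at 0.41 ± 0.10.

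Co-chaperones and the remaining members were also higher. stv, or starvin, which encodes a BAG-domain partner of Hsp70, stood at 56.1, 272 and 369 CPM in young, 68.3, 343 and 453 in old, and 26.5 and 212 in ablated old flies. All heat-shocked libraries lay above all controls, with a log2 fold change of 2.65 ± 0.16 (adjusted p = 4.74e-05). DnaJ-1, the main partner of Hsp70 in refolding, rose from 240.2, 273 and 247 CPM in the controls to between 405 and 533, by 0.83 ± 0.08 on the log2 scale (adjusted p = 1.18e-05). Hsp83 rose from 1271, 1093 and 1189 CPM to between 1510.2 and 1668, by 0.44 ± 0.06 (adjusted p = 0.000648), the smallest rise of the list. The noncoding RNA of the heat shock locus Hsromega, which organises nuclear bodies under stress, rose by 1.29 ± 0.09 (adjusted p = 4.05e-07). Its levels differed mainly between wild-type and ablated libraries, which were also of different batches. They were 241 and 336 CPM in the wild-type controls, 499 to 1009 in the wild-type heat-shocked libraries, and 29.1 and 65.6 in the ablated pair. Hsp22, CG4456 and Hsp70Bbb, the remaining members in the table, had too few counts to be tested. Hsp22 had no count in any of the 8 libraries, as was the case for the germline genes cup and BicC. How reads were counted was not given, so this need not mean that the transcript was absent. Hsp27, a further member of the list, was not in the table. In the old strata only, 11 of the 14 members passed. With the insulin-ablated young pair added as a stratum, 7 of the 14 passed, and those that did not were Hsp68 (5.20, adjusted p = 0.108), Hsp23 (4.83, adjusted p = 0.0895), stv (2.18, adjusted p = 0.101), Hsp67Bc (3.42, adjusted p = 0.092), Hsp70Ab (3.35, adjusted p = 0.0568), Hsp70Bb (3.64, adjusted p = 0.0796) and Hsp70Bc (3.50, adjusted p = 0.192).

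**Figure D2:**
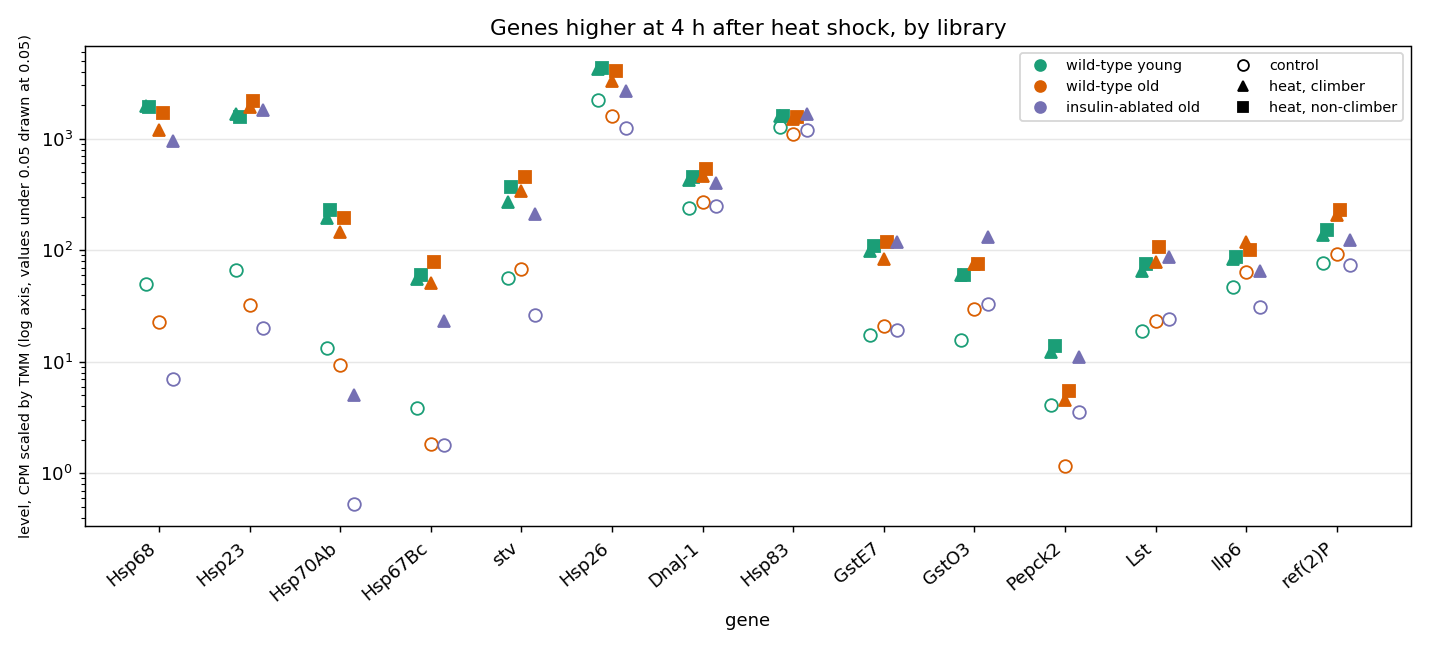
Level in CPM scaled by TMM (log axis) of 14 higher genes in each of the 8 libraries. Open circles are controls, triangles climbers and squares non-climbers, coloured by stratum, and for Hsp68 all heat-shocked libraries lie between 964 and 1982 CPM and all controls at or below 49.7 CPM.

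Chaperones that are made at all times changed little as a group. Of 29 tested members 3 were higher and 1 was lower, with a median log2 fold change of 0.13. Cdc37, a partner of Hsp83, was at 0.46 ± 0.12 (adjusted p = 0.0301), and Hsp110, a nucleotide exchange factor of Hsp70, at 0.29 ± 0.08 (adjusted p = 0.0377). Roe1, a mitochondrial nucleotide exchange factor, fell by 0.43 on the log2 scale with an SE of 0.09 (adjusted p = 0.00918). Hsc70-4, the most studied constitutive Hsp70 protein of the cytosol, had 3151 CPM in the young control and a log2 fold change of -0.00 ± 0.06, so it did not pass. With 1 library left out, 2 members were higher without either wild-type non-climber and none without each of the other 6 libraries. In the endoplasmic reticulum, 3 of 22 folding genes were higher and none lower. The number higher was 1 in the old strata only and 2 without the wild-type old control. Hsc70-3, the chaperone BiP, stood at 1315, 1956 and 2241 CPM in young, 1404, 1979 and 2039 in old, and 488 and 855 in ablated old flies. Each heat-shocked library lay above the control of its own stratum, and the log2 fold change was 0.65 ± 0.07 (adjusted p = 4.45e-05). Xbp1, the transcription factor of the unfolded protein response, was at 0.50 ± 0.09 (adjusted p = 0.00406), and Sil1, an exchange factor of BiP, at 0.46 ± 0.12 (adjusted p = 0.0249).

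Protein removal showed single genes rather than whole machines above the threshold. Of 31 proteasome subunits 3 were higher (Rpn6, Rpt2 and Rpn1, at 0.33, 0.32 and 0.28 on the log2 scale, with adjusted p of 0.024 to 0.0378), and all 31 had fold changes above 0, with a median of 0.13. None of the 3 passed in the old strata only. Of 25 autophagy and lysosome genes 4 were higher, against 1 in the old strata only and 2 without the wild-type old control. ref(2)P, the fly p62 receptor that brings ubiquitinated proteins to autophagosomes, stood at 77.1, 138 and 153 CPM in young, 93.4, 205 and 229 in old, and 74.5 and 125 in ablated old flies. All heat-shocked libraries lay above all controls, and the log2 fold change of 0.98 ± 0.10 (adjusted p = 1.59e-05) kept its call without each of the 8 libraries. Atg8a, which coats autophagosomes, was at 0.37 ± 0.09 (adjusted p = 0.0182) and the lysosomal protease CtsL1 at 0.35 ± 0.07 (adjusted p = 0.00687).

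Genes that detoxify reactive compounds rose in part. Of 34 glutathione transferases, the enzymes that couple glutathione to electrophiles, 7 were higher and none was lower, with a median of 0.20. GstE7 stood at 17.3, 97.5 and 109 CPM in young, 20.9, 83.9 and 118 in old, and 19.2 and 119 in ablated old flies. The controls lay within 17.3 to 20.9 CPM and every heat-shocked library at or above 83.9, with a log2 fold change of 2.48 ± 0.13 (adjusted p = 3.71e-08). GstO3, an omega-class member, stood at 15.8, 60.5 and 60.3 CPM in young, 30.0, 75.8 and 74.9 in old, and 33.3 and 130.4 in ablated old flies, with a log2 fold change of 1.71 ± 0.12 (adjusted p = 4.22e-07). With the insulin-ablated young pair added, GstO3 did not pass (adjusted p = 0.165). GstE3 rose as much as GstO3 (1.71 ± 0.14, adjusted p = 1.15e-05). GstD2 was at 2.12 ± 0.38 (adjusted p = 0.0453), with 23.2 CPM in the wild-type old climber library against 47.7 to 94.2 in the 4 other heat-shocked libraries. It passed without the wild-type old climber library and lost its call when any other library was left out, at 1.91 to 2.38. In the same list GstD1, the most abundant member in all 3 controls, was at 0.21 ± 0.07 and did not pass (adjusted p = 0.083).

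Among 21 antioxidant and ferritin genes 5 were higher and none lower. The number higher was 2 in the old strata only and 4 without the wild-type old control. Prx6c and Prx6b, peroxiredoxins that reduce peroxides, were at 1.14 ± 0.12 (adjusted p = 3.99e-05) and 0.79 ± 0.10 (adjusted p = 0.000207). Prx6c stood at 14, 25.3 and 35.0 CPM in young, 15.6, 36.3 and 35.9 in old, and 39.4 and 84.6 in ablated old flies, so the ablated control was above every wild-type heat-shocked library. Gclc, the catalytic subunit that starts glutathione synthesis, was at 0.45 ± 0.10 (adjusted p = 0.014). The superoxide dismutases Sod1 (0.00 ± 0.07) and Sod2 (0.03 ± 0.08) and catalase, Cat (0.17 ± 0.07), did not pass. Of 63 cytochrome P450 genes 4 were higher (6.35%, near the 4.41% of all genes tested) and none lower. In the old strata only, and without the wild-type old control, 1 was higher. Those that passed included the mitochondrial P450 genes Cyp12d1-p (1.61 ± 0.26, adjusted p = 0.00148) and Cyp12a5 (0.99 ± 0.20, adjusted p = 0.00673). Of 26 UDP-glycosyltransferases 2 were higher and 1 was lower, and of 6 metallothioneins none passed.

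Of 22 stress transcription factors 5 were higher and none lower, with a median of 0.19. In the old strata only, and without the wild-type young control, 2 were higher. Xrp1, a bZIP factor of stress and cell competition, stood at 167, 321 and 370.3 CPM in young, 309, 453 and 537 in old, and 131 and 173 in ablated old flies. The groups overlapped across strata, and within each stratum heat was higher, with a log2 fold change of 0.73 ± 0.11 (adjusted p = 0.00273). Rel, the NF-kappaB factor of the immune deficiency pathway, was at 0.75 ± 0.13 (adjusted p = 0.00723) and kay, the fly Fos, at 0.60 ± 0.12 (adjusted p = 0.0102), which did not pass in the old strata only (0.39, adjusted p = 0.0817). Heat shock factor itself, Hsf, had 156, 152 and 165 CPM in the controls, 144 to 166 in the heat-shocked libraries and a log2 fold change of 0.00 ± 0.08. Of 15 targets and ligands of the JAK/STAT and JNK pathways, 4 were higher and 1 was lower. The number higher was 2 in the old strata only and 2 without the wild-type old control. Socs36E, a feedback inhibitor of JAK/STAT, was at 0.73 ± 0.11 (adjusted p = 0.000986), the matrix protease Mmp1 at 0.98 ± 0.16 (adjusted p = 0.00125), and puc, the phosphatase that limits JNK, at 0.48 ± 0.11 (adjusted p = 0.0143). TotM, a humoral stress peptide, was lower in each stratum, from 42.8 to 27.9 and 36.9 CPM in young, 45 to 33.6 and 32.9 in old and 189 to 86.4 in ablated old flies (-0.63 ± 0.14, adjusted p = 0.0197).

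Of 6 insulin-like peptide genes 1 was higher, with a median over the list of -0.06. Ilp6, an insulin-like peptide of the fat body, stood at 46.7, 84.0 and 87.2 CPM in young, 63.7, 118 and 99.7 in old, and 31.3 and 65.0 in ablated old flies. All heat-shocked libraries lay above all controls, though only just, with 65.0 against 63.7 CPM at the nearest. The log2 fold change was 0.88 ± 0.10 (adjusted p = 3.67e-05), and the 5 other tested insulin-like peptides did not pass. Lst, or limostatin, a decretin hormone that restrains insulin release, stood at 19.1, 65.3 and 74.7 CPM in young, 23, 78.5 and 108 in old, and 24.3 and 87.8 in ablated old flies. The controls and the heat-shocked libraries did not overlap, and the log2 fold change was 1.92 ± 0.12 (adjusted p = 5.26e-08). With the insulin-ablated young pair added, Lst did not pass (adjusted p = 0.0901). Of 19 genes of fasting and of the factor FOXO, which acts when insulin signalling is low, 5 were higher and 2 lower, and 2 were higher and 1 lower in the old strata only or without the wild-type young control. Pepck2, a mitochondrial enzyme of gluconeogenesis, was at 1.79 ± 0.25 (adjusted p = 0.000485), with 4.14, 12.3 and 13.9 CPM in young, 1.16, 4.54 and 5.5 in old, and 3.56 and 11 in ablated old flies. daw, an activin-like ligand, was at 1.03 ± 0.19 (adjusted p = 0.0036), and InR, the insulin receptor, at 0.67 ± 0.11 (adjusted p = 0.00247). The lower members were Sirt2, a protein deacetylase (-0.48 ± 0.10, adjusted p = 0.00907), and mag, a gut lipase (-0.44 ± 0.13, adjusted p = 0.0468). In the apoptosis list, the caspase inhibitor Diap1 was higher (0.64 ± 0.09, adjusted p = 0.000381) and the caspases Dronc (-0.46 ± 0.09, adjusted p = 0.00782) and Dcp-1 (-0.36 ± 0.10, adjusted p = 0.0463) were lower, out of 10 tested. Neither caspase passed in the old strata only or without the wild-type old control, and Dcp-1 kept its call in 1 of the 8 fits that leave out a library. In the clock list, tim, which encodes a partner of period, was at 0.94 ± 0.20 (adjusted p = 0.0089) and vri, a clock repressor, at 0.55 ± 0.15 (adjusted p = 0.0319), out of 16 tested. The number of clock genes above the threshold fell to 0 with the wild-type old control left out.

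Transcripts assigned to the mitochondrial genome formed the second group that stood out, with 21 of 36 higher and 1 lower. The short tRNA transcripts rose furthest: 14 of 21 were higher, 1 was lower and their median log2 fold change was 1.73. mt:tRNA:Ser-GCT stood at 118, 482 and 473 CPM in young, 85.6, 380.1 and 484 in old, and 66.6 and 275 in ablated old flies. The groups did not overlap, and its log2 fold change of 2.14 ± 0.10 (adjusted p = 5.36e-09) had the smallest p of all genes tested. mt:tRNA:Gln-TTG stood at 7.40, 127 and 98.3 CPM in young, 11.9, 84.1 and 111 in old, and 10.8 and 104 in ablated old flies, a log2 fold change of 3.39 ± 0.21 (adjusted p = 0.000111). mt:tRNA:Cys-GCA was the lower member (-0.69 ± 0.16, adjusted p = 0.0233). Of the 13 protein genes, 7 were higher and none lower, with a median of 0.45. Members of the NADH dehydrogenase complex and of ATP synthase differed in size, from mt:ND4L (1.39 ± 0.19, adjusted p = 0.00144) and mt:ATPase8 (1.38 ± 0.17, adjusted p = 0.00378) to mt:ATPase6 (0.35 ± 0.07, adjusted p = 0.00538). Neither of the 2 ribosomal RNAs passed. mt:lrRNA, the most abundant transcript in the 8 libraries, was at 0.36 ± 0.25.

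The kit primes on poly(A), and mitochondrial tRNAs reach such a library when they carry a poly(A) tail or lie in an adenylated precursor, so these values do not measure mature tRNA. The share of all counts on the mitochondrial genome was 5.14% to 9.05% in the controls and 5.96% to 12.3% in the heat-shocked libraries, and it was lower in the wild-type old climber library (7.63%) than in its own control (8.86%). The share on mitochondrial tRNA was 0.0288% to 0.0364% in the controls and 0.0756% to 0.112% in the heat-shocked libraries. Of 61 nuclear genes for oxidative phosphorylation none passed in either direction, with a median of 0.11. With scaling factors computed without mitochondrial transcripts, 21 of the 36 were still higher. Without the wild-type old control 14 were higher, and in the old strata only 16.

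**Figure D3:**
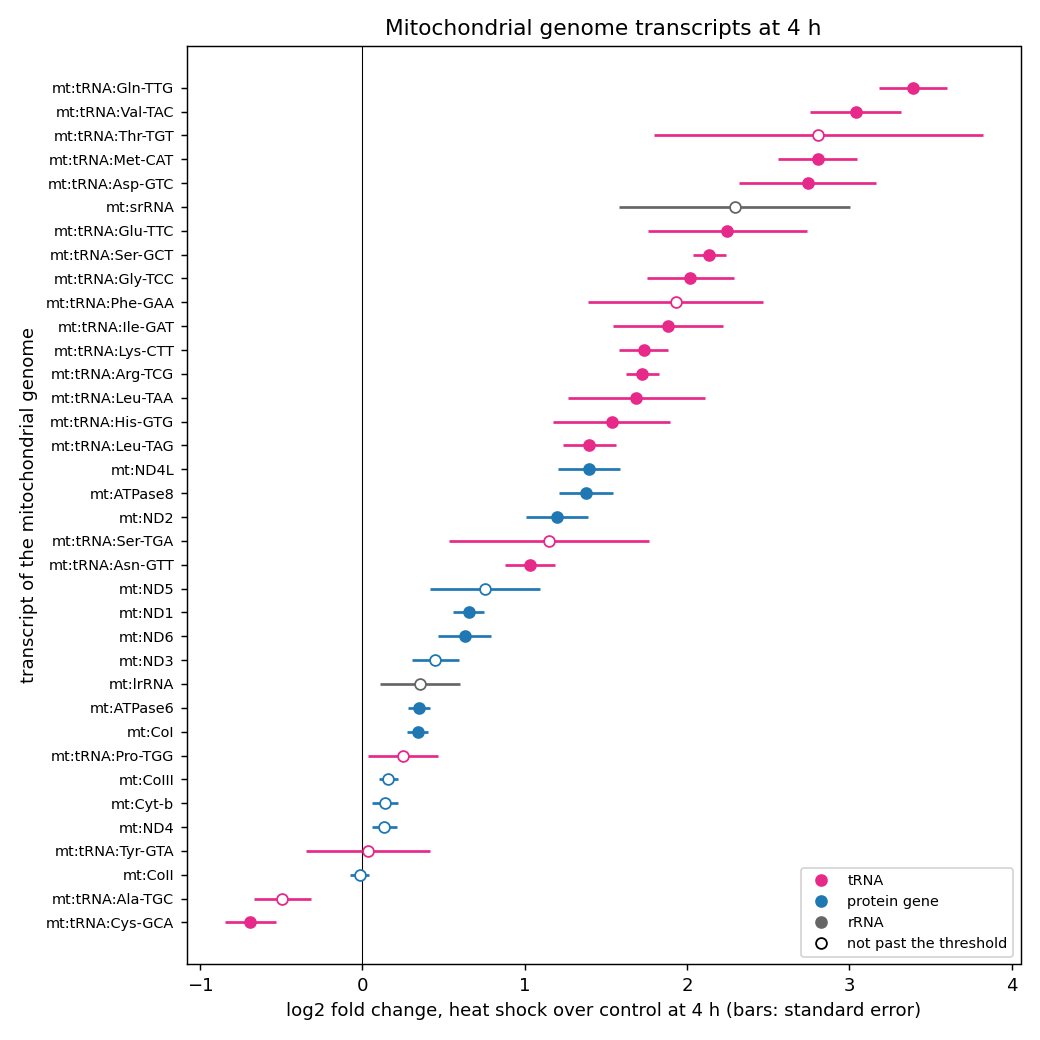
Log2 fold change of heat shock over control at 4 h (horizontal axis, bars are standard errors derived from the F statistic) for the 36 tested transcripts of the mitochondrial genome. Filled points passed the threshold and open points did not, and the tRNAs in pink lead the order, with mt:tRNA:Gln-TTG at 3.39.

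The genes of cytosolic ribosomal proteins had 20 of 84 members higher and 1 lower, with a median of 0.17. RpS7 (0.31 ± 0.06, adjusted p = 0.00694) and RpL5 (0.28 ± 0.06, adjusted p = 0.00851) are examples, and RpS5b, a paralog used in the ovary, fell by 0.44 on the log2 scale with an SE of 0.08 (adjusted p = 0.00671). These rises were small and rested on single libraries. None of the members was higher without the ablated old climber, the ablated old control or the wild-type young control, 1 was higher when the wild-type old control was left out, 3 without the wild-type young climber and 15 to 23 without each of the other 3 libraries.

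On the lower side, antimicrobial peptide genes, which are secreted by the fat body and by barrier tissues, had 4 of 32 members lower and none higher, with a median of -0.33, beside 2.6% lower of all genes tested. Mtk, or Metchnikowin, stood at 409.8, 242 and 277 CPM in young, 2353, 1203 and 1011 in old, and 1269.9 and 809 in ablated old flies. The old control was the highest library, the young heat-shocked libraries the lowest, and each heat-shocked library lay below its own control, with a log2 fold change of -0.82 ± 0.09 (adjusted p = 0.00029). With the 33 libraries of all hours in 1 fit, Mtk (adjusted p = 0.41), DptB (0.628) and IBIN (0.405) did not pass, nor did they with the insulin-ablated young pair added (0.233, 0.389 and 0.286). DptB, a diptericin, stood at 74.4, 49.8 and 45.5 CPM in young, 706, 386 and 348 in old, and 585 and 363 in ablated old flies (-0.77 ± 0.08, adjusted p = 2.96e-05). Drsl5, of the drosomycin family, was below all controls in all 5 heat-shocked libraries, at 18.5 to 32.2 against 55.4 to 57.4 CPM (-1.10 ± 0.14, adjusted p = 0.000485). IBIN, a short immune-induced peptide gene, fell in each stratum, from 54.2 to 22.5 and 26.0 CPM in young, 363 to 182 and 225 in old, and 300.5 to 172 in ablated old flies (-0.94 ± 0.10, adjusted p = 2.28e-05). The cecropins CecA1 (0.08 ± 0.68), CecA2 (-0.24 ± 0.75) and CecC (0.34 ± 0.66) did not pass. Among 24 recognition and signalling genes, PGRP-SC2, an amidase that degrades peptidoglycan (-0.68 ± 0.13, adjusted p = 0.00651), and Tl, the receptor Toll (-0.39 ± 0.09, adjusted p = 0.0178), were lower, and imd, the adaptor of the immune deficiency pathway, was higher (0.73 ± 0.17, adjusted p = 0.0183).

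Digestive genes of the gut were lower where they passed, with 1 exception. Of 31 trypsin and Jonah protease genes 6 were lower and 1 was higher, with a median of -0.50. Jon65Aiv stood at 612, 232 and 209 CPM in young, 416, 233 and 134 in old, and 968 and 394 in ablated old flies. All 5 heat-shocked libraries lay below all 3 controls, with a log2 fold change of -1.32 ± 0.18 (adjusted p = 0.0118) that lost its call without the wild-type young control (-1.25, adjusted p = 0.11), the wild-type old control (-1.41, adjusted p = 0.07), the wild-type young non-climber or either ablated library. Jon65Aiii (-0.75 ± 0.08, adjusted p = 2.37e-05) and yip7 (-0.79 ± 0.12, adjusted p = 0.0025) kept theirs without each of the 8 libraries. The exception, Jon66Cii, had at most 2.47 CPM in any library (2.79 ± 0.81, adjusted p = 0.0488). Mal-A2, a maltase, stood at 20.6, 8.67 and 9.08 CPM in young, 11.9, 8.10 and 5.74 in old, and 31.6 and 13.8 in ablated old flies (-1.06 ± 0.18, adjusted p = 0.00184), the only 1 of 14 maltase and amylase genes to pass. Among 7 digestive lysozymes, LysE (-1.25 ± 0.26, adjusted p = 0.0102) and LysX (-0.52 ± 0.14, adjusted p = 0.0474) were lower and all 7 had fold changes below 0. In the old strata only, 2 of the 31 proteases were lower and no lysozyme was. Jonah and lysozyme genes have close paralogs, so reads may be split between them.

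**Figure D4:**
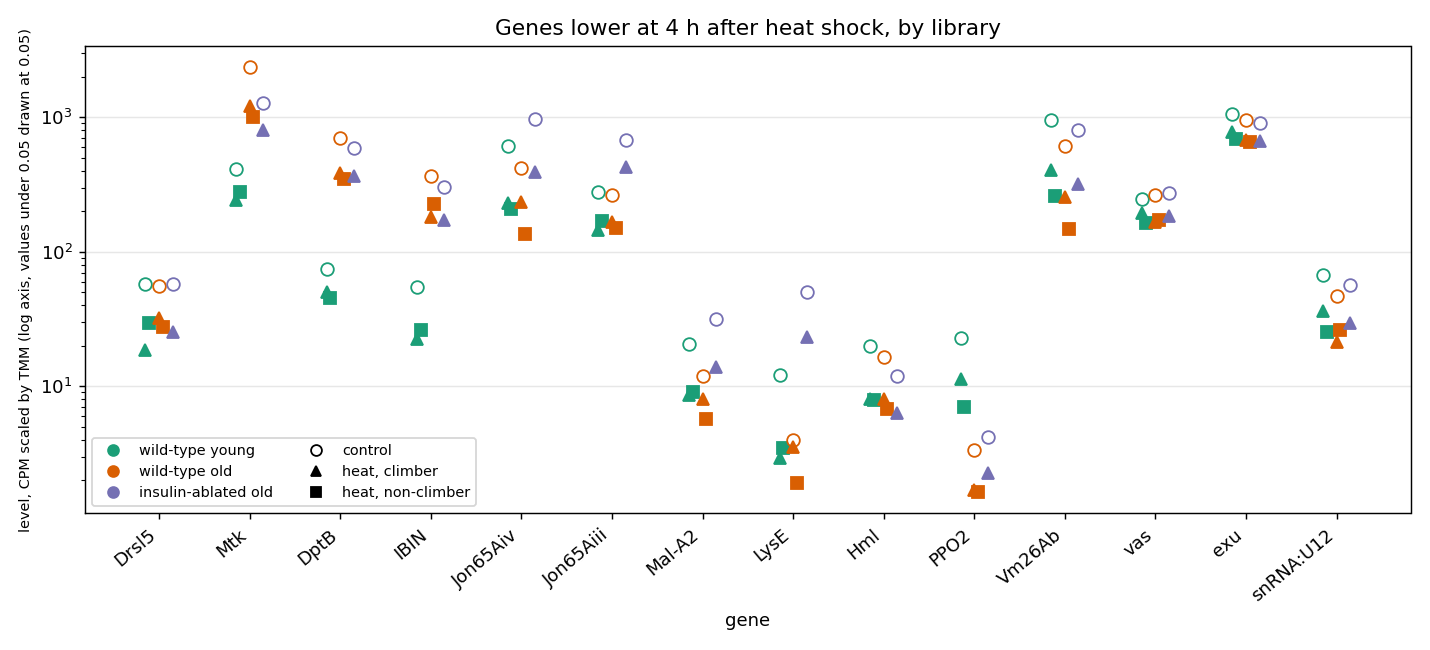
Level in CPM scaled by TMM (log axis) of 14 lower genes in each of the 8 libraries, with open circles for controls, triangles for climbers and squares for non-climbers, coloured by stratum. Each filled mark lies below the open circle of its own colour, as for Mtk with 1203 and 1011 CPM against 2353 CPM in wild-type old flies.

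Blood cell genes gave 2 lower and 1 higher of 17 tested. Hml, or hemolectin, a clotting protein of plasmatocytes, stood at 19.9, 8.11 and 7.92 CPM in young, 16.55, 8.02 and 6.81 in old, and 11.9 and 6.34 in ablated old flies. All heat-shocked libraries lay below all controls, and the log2 fold change of -1.15 ± 0.18 (adjusted p = 0.00133) kept its call without each of the 8 libraries. PPO2, a prophenoloxidase of crystal cells, stood at 22.8, 11.2 and 7.01 CPM in young but 3.37, 1.70 and 1.63 in old and 4.17 and 2.28 in ablated old flies (-1.10 ± 0.25, adjusted p = 0.0135). It did not pass without the wild-type young control (-0.97, adjusted p = 0.25) or the wild-type old control (-1.16, adjusted p = 0.061). The higher member, peb, is a transcription factor that is also used in other tissues (0.44 ± 0.12, adjusted p = 0.0433). The phagocytic receptors eater (-1.89 ± 0.57), Sr-CI (-0.91 ± 0.30) and NimC1 (-0.41 ± 0.41) did not pass.

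Ovary genes fell in part. Of 24 eggshell and yolk genes 1 was lower (4.17%, beside 2.6% of all genes tested). Vm26Ab, a vitelline membrane protein made by follicle cells, stood at 948, 406 and 257 CPM in young, 614, 257 and 148 in old, and 804 and 319 in ablated old flies, below all controls in all heat-shocked libraries (-1.50 ± 0.25, adjusted p = 0.0401). It did not pass without the wild-type young control (-1.51, adjusted p = 0.24), the wild-type old control, the wild-type young non-climber or either ablated library. Vml, a vitelline membrane-like protein, was also among the largest falls (-1.11 ± 0.19, adjusted p = 0.0237). It kept its call in 2 of the 8 fits that leave out a library, without either wild-type young heat-shocked library. Vml passed in the old strata only (-1.25, adjusted p = 6.09e-05). It did not pass with batch in place of stratum (-1.25, adjusted p = 0.148), a fit whose heat term comes from the same old libraries. Cp36, a chorion protein, had 2721 CPM in the young climber and 415 in the young non-climber library, and its heat term of -0.40 ± 0.81 did not pass. The yolk genes Yp1 (-0.46 ± 0.19), Yp2 (-0.37 ± 0.19) and Yp3 (-0.71 ± 0.21) did not pass. Of 22 germline genes 6 were lower and none higher. exu, which carries messenger RNA in the oocyte, stood at 1057, 776 and 692 CPM in young, 952, 676 and 649.9 in old, and 901 and 664 in ablated old flies, with no overlap (-0.50 ± 0.07, adjusted p = 0.000341). vas, the germline helicase Vasa (-0.56 ± 0.08, adjusted p = 0.000535), bcd, the anterior determinant (-0.43 ± 0.08, adjusted p = 0.00552), gus, nanos and swa were the others. In the old strata only, 3 of the 22 were lower. With the insulin-ablated young pair added, exu (adjusted p = 0.105), vas (adjusted p = 0.319) and bcd did not pass. The share of all counts on eggshell and yolk genes was 3.55%, 2.69% and 1.74% in wild-type young, 1.87%, 1.97% and 0.839% in wild-type old and 2.51% and 1.64% in ablated old flies, and its part in the other changes was not tested.

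**Figure D5:**
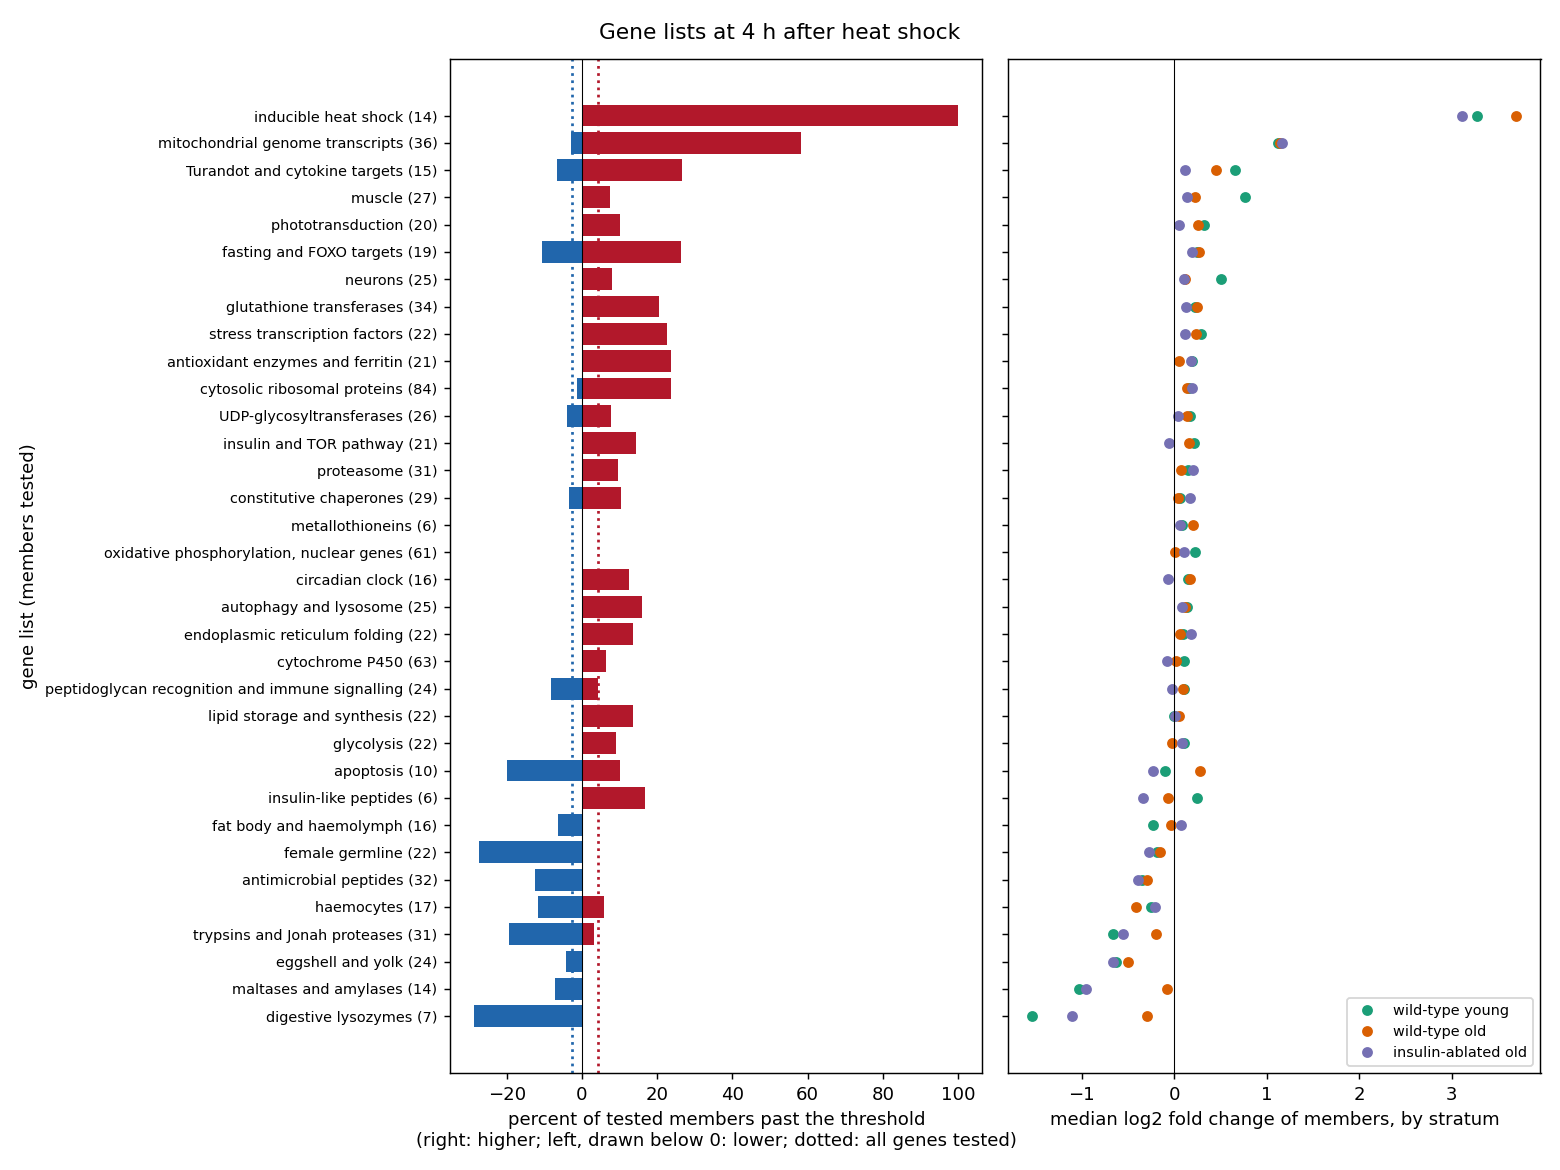
Left panel, percent of the tested members of each gene list past the threshold, higher to the right in red and lower to the left in blue, with dotted lines at 4.41% and 2.6% for all genes tested. Right panel, median log2 fold change of the members within each stratum, from 3.12 or more for inducible heat shock genes to below 0 for digestive lysozymes.

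Of 27 muscle genes 2 were higher (7.41%, beside 4.41% of all genes tested) and none lower, and all 27 had fold changes above 0. Of 25 neuron genes 2 were higher (8%) and none lower, and of 20 eye genes likewise 2 (10%) and none. Their medians were 0.39, 0.25 and 0.27. In the old strata only, 1 muscle gene was higher and no neuron or eye gene was. Without the wild-type old control, 2 muscle genes were higher and again no neuron or eye gene. In muscle and neurons the wild-type young stratum stood above the old ones, at 0.77 and 0.51 against 0.23 and 0.11 in wild-type old flies, with summed muscle levels of 3840 CPM in the young control, 4878 in the climber and 7661 in the non-climber library. Young heat-shocked and control libraries came from different batches. Of 16 fat body and haemolymph genes 1 was lower, regucalcin, a calcium-binding protein (-0.69 ± 0.12, adjusted p = 0.00457). Of 25 male reproductive genes only 1 had enough counts to be tested, and its summed list level was at most 2.81 CPM in any library.

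Differences of the heat effect between strata were tested with a heat term for each stratum, which left 2 residual degrees of freedom. Between old and young wild-type flies 3 genes passed (0.0282% of those tested), and between ablated and wild-type old flies 4 passed (0.0376%). The heat effect on Hsp23 was 4.58 ± 0.17 in young wild-type flies and 5.98 ± 0.18 in the old ones, a difference of 1.39 ± 0.18 (adjusted p = 0.0382), with 67.0 CPM in the young and 32.6 in the old control. Drat, an alcohol-dehydrogenase-related gene, stood at 76.4, 381 and 401 CPM in young and 148, 319.6 and 278 in old flies, a difference of -1.35 ± 0.19 (adjusted p = 0.048). In young flies the heat effect also holds the batch. Between ablated and wild-type old flies the heat effect was larger in the ablated pair for mt:srRNA (3.26 ± 0.25, adjusted p = 0.00543), lncRNA:mimi (2.02 ± 0.26, adjusted p = 0.0233) and elav, the pan-neuronal RNA-binding protein (4.76 ± 0.63, adjusted p = 0.0233), and smaller for CG15721 (-2.32 ± 0.34, adjusted p = 0.0434). The ablated control stood apart for mt:srRNA, with 72.7 CPM against 1712 and 2334 in the wild-type controls. The other genes had far fewer counts in the ablated control and climber than in any wild-type library. elav had 3 and 97 counts there, against 184 to 471 in the wild-type libraries. lncRNA:mimi had 78 and 329 against 1874 to 3999, and CG15721 had 111 and 49 against 349 to 2534. For elav the ratio in the ablated pair was 30.5, and its exact 95% interval for counting error was 10.1 to 151. The ablated stratum had 1 library of each kind, so these differences rest on 1 pair.

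The levels of the same genes at other hours place the 4 h values. With all 33 libraries of these strata scaled together, Hsp68 ran from 3548 to 6754 CPM in the 5 libraries of 0 h, from 947 to 1957 at 4 h and from 503 to 1017 at 8 h, against 6.91 to 50.6 in the controls of 4 h. lncRNA:Hsromega ran from 385 to 1980 CPM at 0 h, from 64.4 to 973 at 4 h and from 71.7 to 728 at 8 h. The lowest value at each of these hours was that of the ablated library. In each stratum it was lower at 4 h than at 0 h, and from 4 h to 8 h it fell further only in wild-type old flies. GstE7 ran from 105 to 228 CPM at 2 h, 79.4 to 117 at 4 h and 35.7 to 72.2 at 8 h. Lst was lower at 0 h than at 4 h, with 20.6 to 33.5 CPM at 0 h, 64.5 to 104 at 4 h and 35.2 to 60.2 at 8 h. Ilp6 went from 19.2 to 65.5 CPM at 0 h to between 63.9 and 111 at 4 h and between 61.5 and 117 at 8 h. Vm26Ab ran from 522 to 1074 CPM at 0 h, from 143 to 400.4 at 4 h and from 17 to 108 at 8 h. Control libraries were of 4 h, so the other hours are given as levels with no test.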

How the data were processed

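Whole-fly RNA was extracted with Trizol and sequenced from the 3' end with a Lexogen Quant V2 kit, using read 1 alone, per the labels. The authors deposited raw counts for each gene, with no normalization. The submitters' processing notes name STAR 2.7.5a and dm6. How reads were counted, on which annotation and strand, and whether molecular identifiers were used, was not given in the sources used here, so reads of overlapping genes and of antisense genes cannot be told apart. The table held 17609 genes, of which 17596 matched a symbol in the BDGP6 annotation, and gene coordinates are those of that annotation.

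Groups came from the labels. Genes were filtered with filterByExpr, scaled by TMM and tested in edgeR 4.0.16 (R 4.3.3) by quasi-likelihood with robust estimation, on terms for stratum and heat, with Benjamini-Hochberg adjustment over all 10630 genes tested and a threshold of 0.05. Differences between strata used the same genes. Each condition had 1 library, so p-values measure scatter around the model, with a common dispersion of 0.0340. The members, the 35 gene lists and the naming rule were chosen with earlier results of these data known, and 5 list symbols were corrected after the files were read. The rule took the 15 largest rises and 15 largest falls that passed, at a mean level (log2 CPM) of 3 or more and with 1 sign in all 5 heat-shocked libraries, up to 3 passing members per list, every inducible heat shock gene and up to 5 genes per difference between strata. The text prints a subset. Alternatives were RLE factors, DESeq2 1.42.0, limma-voom (limma 3.58.1), other filters, other sets of libraries or terms, and leaving out each library. The fit was tested on simulated data. Figures used matplotlib 3.10.9.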

Additional observations from a re-analysis of the deposited data

Results flagged for a closer look

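The heat effect differed between old and young wild-type flies, by the test of the difference, for Hsp23 (1.39 on the log2 scale), Drat (-1.35) and CG4116 (-25.58). The value of CG4116 is a fitted number that depends on the handling of 0 counts and is no measure of size. CG4116 had 0, 687 and 617 counts in the young control, climber and non-climber, 1072, 0 and 0 in the old ones, and 0 in both ablated libraries. Over the 33 libraries of all hours it lay between 37.9 and 57.4 CPM in 7 libraries and at no more than 0.249 CPM in the 26 others. The heat effect differed between ablated and wild-type old flies for mt:srRNA (3.26), lncRNA:mimi (2.02), elav (4.76) and CG15721 (-2.32). In the ablated old libraries of all hours elav lay at 0.130 CPM in the control and between 1.48 and 3.95 CPM in the 6 others, and mt:srRNA at 71.5 CPM in the control and between 691 and 3664 CPM in the others.

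Among the named genes, 12 had 1 heat-shocked library whose log2 change over its own control stood apart from the 4 others. Chance flags about 1 in 20 such groups. The ablated climber stood apart for Hsp70Bb (0.88), Hsp70Aa (5.58), elav (4.12), CG15721 (-1.22) and lncRNA:mimi (1.96). Since elav, CG15721 and lncRNA:mimi were named for a heat effect that differed in the ablated pair, the flag adds nothing for them. The wild-type old climber did for GstE7 (2.00), GstD2 (0.88) and yip7 (-0.36), and the wild-type old non-climber for CG45061 (2.17). The wild-type young climber did for vas (-0.34), and the young non-climber for PPO2 (-1.69) and CG42821 (-0.12).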

How the results depend on the processing

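No paired analysis was possible because each condition had 1 library and the labels carry no replicate numbers, and stratum was already a term. The 745 genes changed by heat became 1264 with any counted gene kept (50.6% higher), 250 with batch in place of stratum, 243 in the old strata only, 484 with behaviour as a term and 337 with the insulin-ablated young pair added after seeing the data. Leaving out 1 library gave 219 to 650 genes, with 219 without the wild-type young control and 330 without the wild-type old control. The fits with batch in place of stratum, in the old strata only and without the wild-type young control are not separate checks. In each of them the heat term comes from the same old libraries. Leaving out either ablated library likewise leaves the heat term to the wild-type libraries. The share that was higher, 63.0%, was 55.4% with scaling factors computed without mitochondrial transcripts, also chosen after seeing the data. The 3 genes whose heat effect differed by age became 5 with RLE factors, 17 with DESeq2, 72 with any counted gene kept, and 1 each with limma-voom and without robust estimation. They became 1 to 49 with 1 library left out, 49 without the wild-type young climber, 40 without the young non-climber and 1 without either old heat-shocked library. The 4 genes that differed by genotype became 46 with any counted gene kept, 15 in the old strata only, and 1 with limma-voom, without robust estimation or without either wild-type old heat-shocked library. 1 sign turned: the heat term of CG4116, -3.88 and not past the threshold, was 11.20 without the wild-type old control, against -12.34 without the wild-type young control. The causes were not tested. Of 109 named genes that passed for heat, 47 kept their call without each library in turn. Hsp70Ab, GstE7, Lst, DptB and Hml were among them. With the insulin-ablated young pair added, Hsp70Ab, Lst and DptB did not pass. The behaviour term was used as an adjustment, and its own genes are not given. With 1 library per condition, culture and library are not separated, and floors of 3 counts (0.133 to 0.208 CPM) cover counting error only.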

Other observations

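Small nuclear RNAs, many but not all of which build the spliceosome, held 5 lower and 1 higher genes of 17 tested. Their median log2 fold change was -0.22. The higher gene was snRNA:7SKa, at 14.9 to 30.2 CPM in the heat-shocked libraries and 6.63 to 15.2 CPM in the controls. Lower members included RNAs of the minor spliceosome, which removes a rare class of introns. snRNA:U12 stood at 66.6, 36.4 and 25.1 CPM in the wild-type young control, climber and non-climber, 46.9, 21.2 and 26.3 in wild-type old, and 57.0 and 29.3 in ablated old flies. All 5 heat-shocked libraries lay below all controls, and the log2 fold change was -1.02 ± 0.12 (edgeR quasi-likelihood, adjusted p = 0.000133). With the insulin-ablated young pair added, snRNA:U12 did not pass (adjusted p = 0.107). snRNA:U6atac was at -1.22 ± 0.17 (adjusted p = 0.00546), and lost its call without the wild-type young control (-1.19, adjusted p = 0.065). snRNA:U4atac was at -0.94 ± 0.18 (adjusted p = 0.00513), and lost its call without the wild-type old control (-0.77, adjusted p = 0.11). snRNA:U7, which serves histone messenger RNA and was chosen after its value was seen, was at -1.75 ± 0.30 (adjusted p = 0.00265). The kit primes on poly(A), which mature forms of these RNAs lack, so the values need not follow their total amount. Of 24 nuclear tRNA genes as annotated none passed, of 83 small nucleolar RNAs 1 was lower, and of 475 other noncoding RNAs 24 were higher and 2 lower.

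Some genes with large and even rises belonged to no list. CG2065, an uncharacterised gene on chromosome 2R, stood at 3.89, 22.1 and 21.2 CPM in young, 3.85, 15.1 and 19.96 in old, and 2.37 and 15.05 in ablated old flies (2.42 ± 0.20, adjusted p = 2.58e-06), without overlap. Octbeta3R, an octopamine receptor chosen after its value was seen, stood at 1.82, 10.5 and 9.47 CPM in young, 2.85, 11.8 and 16.1 in old, and 0.658 and 4.81 in ablated old flies (2.48 ± 0.27, adjusted p = 3.71e-05). Eip75B, a nuclear receptor of the ecdysone response chosen the same way, was higher in each stratum (0.67 ± 0.09, adjusted p = 0.000243).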
